A study of Mus musculus with 4 samples.

Results

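Collagen genes were followed in limb and brain of mouse embryos in which Rest, the gene of a repressor of neuronal genes, was conditionally ablated. They were taken as all probes whose gene name on the array has the form Col, a number, a and a number, which gave 83 probes for 42 genes of 27629 genes or unnamed transcripts on the array. Expression was measured by single-colour microarray at embryonic day E13.5 in 4 samples, which were the limb and the brain of wild type (WT) and of conditional knockout (CKO) embryos, with 1 array each. The 4 samples were of mixed 129 and C57BL/6 background, and the labels record doxycycline from E8.5 to E13.5 for each of them, WT included, to switch on Cre recombinase in utero in mice with floxed Rest. Where the doxycycline-inducible Cre alleles lie, which cells they act in, and whether an RNA sample came from 1 embryo or several are not given in the sources used here. With 1 array per group there was no replicate of any group, so no test of CKO against WT could be made inside a tissue, and a difference there was called by its size, at least 2-fold.

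Collagens are proteins of the extracellular matrix built from 3 chains wound into a triple helix, in which glycine recurs at a fixed step along each chain. Fibrillar collagens form the ropes of skin, tendon, bone and cartilage, network collagens form the sheets under epithelia and around vessels, and smaller families decorate fibrils or span cell membranes. In limb buds at this age the cartilage models of the bones are being laid down by chondrocytes, whose fibrils combine type II, IX and XI collagen, while in embryonic brain collagens are made chiefly by vessels and by the mesenchyme of the meninges.

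The glycine repeat is visible in the probes themselves. Of the 83 collagen probes, 3 carry a glycine codon (GGN) every 9 bases from end to end, and 0 of the 41081 other probes do. These 3 are printed 5′ to 3′ with the glycine codons in capitals, because 2 of them belong to genes that differed between CKO and WT. They lie on mm9 at chr2:27842243-27844666 on the plus strand (Col5a1), chr9:20590066-20590795 on the minus strand (Col5a3) and chr17:34189287-34189453 on the plus strand (Col11a2). Each holds 60 bases and spans more than that on the genome, so each crosses at least 1 intron.
Col5a1: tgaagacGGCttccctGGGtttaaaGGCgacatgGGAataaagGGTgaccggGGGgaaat
Col5a3: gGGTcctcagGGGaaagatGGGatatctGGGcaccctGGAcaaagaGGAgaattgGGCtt
Col11a2: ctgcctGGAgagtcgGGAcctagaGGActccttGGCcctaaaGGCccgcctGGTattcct

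A further 2 probes are printed because they belong to Col1a1, the one collagen gene at least 2-fold lower in CKO in both tissues. Col1a1 encodes the α1 chain of type I collagen, made as a precursor with cysteine-rich propeptides at its ends, which are cut off outside the cell. Cysteine codons (TGT or TGC) in a stop-free reading frame are in capitals. Where more than 1 frame was free of stops, as in the second probe, the frame with the most cysteine codons was taken. The first probe lies at chr11:94799277-94799336 and the second at chr11:94812052-94812111 (mm9, plus strand), and they hold 4 and 3 such codons.
Col1a1 first probe: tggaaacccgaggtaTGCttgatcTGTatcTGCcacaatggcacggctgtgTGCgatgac
Col1a1 second probe: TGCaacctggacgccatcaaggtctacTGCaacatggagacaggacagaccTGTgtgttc

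All values are log2 signals relative to the 75th percentile of their own array, so 0 is that percentile, and each gene is given by its brightest probe. Probes differ in how brightly they hybridise, so levels were compared between samples at one probe and never between genes. Spots well above background made up 62.7% to 70.7% of the 43379 spots on an array, and 34 of the 42 collagen genes were well above background on all 4 arrays. Col19a1 and Col24a1 were so on 3 arrays, Col6a3, Col6a6 and Col17a1 on the 2 limb arrays, and Col4a3, Col10a1 and Col28a1 on none. The technical SD of a single-spot CKO minus WT difference was 0.078 in limb and 0.079 in brain. It covers spot error alone and neither labelling nor spread among embryos, so precision is limited by how few arrays there were. Each of 3 Rest probes gave less signal in CKO, by 4.03-fold to 17.2-fold in limb and 1.88-fold to 11.9-fold in brain, where 1 of them was dark in CKO.

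Collagens as a family were higher in CKO brain and close to WT in CKO limb. In brain, 36 collagen genes could be compared, and 11 of them (30.6%) were at least 2-fold higher in CKO against 1.37% of all 18945 genes compared there. Only Col1a1 was at least 2-fold lower in brain, against 1.22% of all genes. The median collagen difference in brain was 0.57 log2 (1.48-fold), with a median of -0.01 over all genes. In limb, 39 collagen genes could be compared, Col5a3 was at least 2-fold higher (2.49% of all 18450 genes were) and Col1a1 at least 2-fold lower (2.16% of all genes). The limb median was -0.11, with -0.02 over all genes.

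Among the 34 collagens measured on all 4 arrays, 16 were higher in CKO brain and lower in CKO limb, 13 were higher in both tissues, 5 were lower in both, and 0 were lower in brain and higher in limb. The brain difference lay above the limb difference for 31 of these 34. The same counts over all genes are not given here, so these cannot be read as particular to collagens. At a smaller size of 1.5-fold, 18 collagens were higher in CKO brain and 1 lower, against 3.48% and 1.98% of all genes. In limb 3 were higher and 3 lower at that size, against 4.77% and 4.73%. These shares describe the 4 samples, and whether they differ from those of other genes was not tested.

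**Figure D1:**
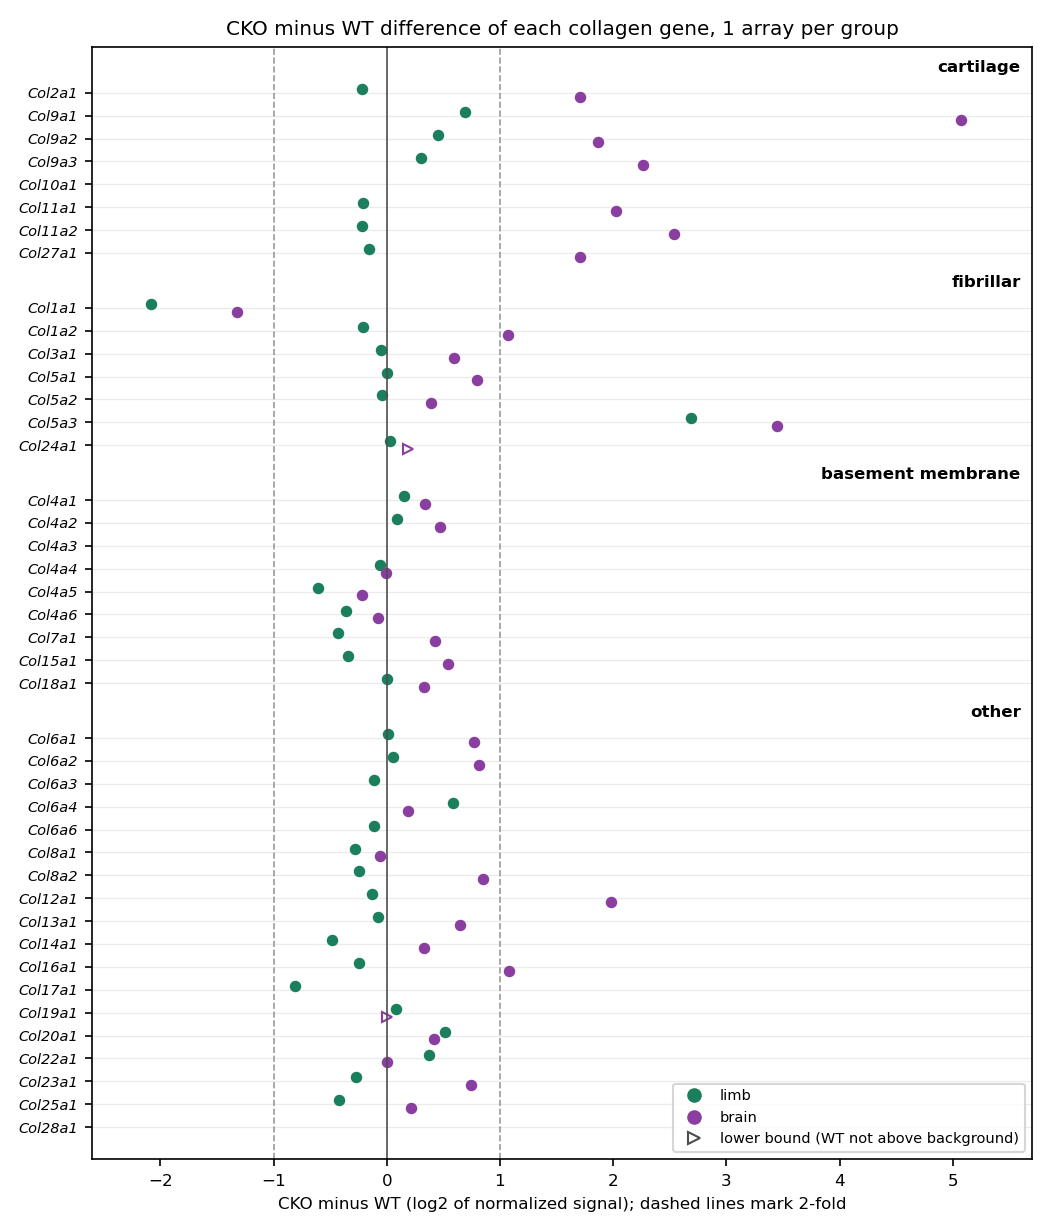
CKO minus WT difference (log2 of normalized signal, horizontal axis) of each collagen gene in limb (green) and brain (purple), grouped by class, from 1 array per group. Filled circles were measured on both arrays, open triangles are lower bounds, dashed lines mark 2-fold, and genes without a point were not above background in that tissue. The 7 measured cartilage collagens lie between 1.71 and 5.08 in brain and between -0.22 and 0.69 in limb.

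The cartilage collagens stood highest. All 7 that were detected were at least 2-fold higher in CKO brain, with a median of 2.03 log2 (4.08-fold), while in limb 0 of 7 differed by 2-fold and the median was -0.15. Type II collagen, a homotrimer of the Col2a1 product, is the main fibril of cartilage. Col2a1 was at 4.10 (WT) and 3.89 (CKO) in limb and 1.06 (WT) and 2.76 (CKO) in brain, each the mean of 10 spots with an SD of 0.05 to 0.06 over the spots. The difference was -0.22 ± 0.023 in limb and 1.71 ± 0.027 in brain (SE over 10 spots on each array). The ranges of the 10 spots did not overlap between genotypes in either tissue. That covers spot error on 1 array each and not spread among embryos, and how many other probes printed 10 times did likewise is not given here. CKO brain lay between WT brain and both limbs. A second Col2a1 probe, which overlaps the first on the genome, gave -0.64 in limb and 1.92 in brain. The third was dark on all 4 arrays, and averaging it in brought the brain difference to 0.94, under 2-fold.

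Type IX collagen sits on the surface of type II fibrils and is built from the chains of Col9a1, Col9a2 and Col9a3. Col9a1 was at 0.45 (WT) and 1.14 (CKO) in limb and -4.20 (WT) and 0.87 (CKO) in brain. WT brain alone was low, and CKO brain lay between the limbs, 33.7-fold above WT brain (5.08 log2), which was the largest difference of any collagen measured. Its probe lies at chr1:24258684-24258743 (mm9). Col9a2 was at 2.50 (WT) and 2.95 (CKO) in limb and 0.86 (WT) and 2.73 (CKO) in brain, a difference of 0.45 in limb and 1.87 in brain. Col9a3 was at 0.01 (WT) and 0.32 (CKO) in limb and -1.13 (WT) and 1.14 (CKO) in brain, a difference of 0.31 in limb and 2.26 in brain. All 3 chains were thus higher in CKO in both tissues, and for Col9a3 the CKO brain sample was the highest of the 4.

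Type XI collagen forms the core of the cartilage fibril, and its chains come from Col11a1, Col11a2 and a product of Col2a1. Col11a1 was at 2.36 (WT) and 2.15 (CKO) in limb and -0.55 (WT) and 1.48 (CKO) in brain, 4.08-fold higher in CKO brain. Col11a2 was at -0.03 (WT) and -0.24 (CKO) in limb and -2.24 (WT) and 0.29 (CKO) in brain, 5.81-fold higher in CKO brain. Both were slightly lower in CKO limb, by -0.21 and -0.22. The glycine-repeat probe of Col11a2 printed earlier was well above background on the 2 CKO arrays alone, at -5.44 in limb and -5.15 in brain. Its dark WT arrays gave a bound of at least 0.21 log2 higher in CKO brain and none above 0 in limb. The mean of both probes differed by 1.68 in brain.

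Col27a1 encodes a fibrillar chain of growth cartilage. It was at -0.33 (WT) and -0.48 (CKO) in limb and -3.97 (WT) and -2.26 (CKO) in brain, 3.27-fold higher in CKO brain, and of the cartilage collagens it was the one left furthest below WT limb. Col10a1, the collagen of hypertrophic chondrocytes, was not well above background on any of the 4 arrays. Under another background correction (normexp) the brain differences of the dimmest genes were smaller. Col9a1 then differed by 3.92 log2 and Col27a1 by 0.95, just under 2-fold.

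**Figure D2:**
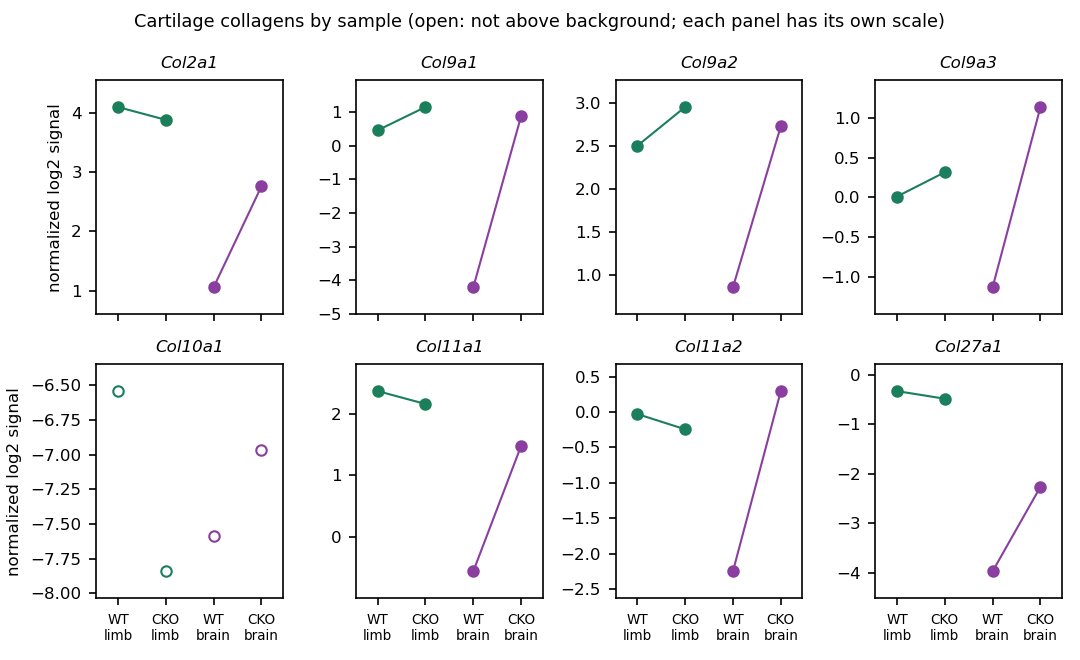
Normalized log2 signal (vertical axis, its own scale in each panel) of the 8 cartilage collagens in limb (green) and brain (purple) of WT and CKO, 1 array each. Filled points were well above background and open points were not. In the 7 detected genes WT brain is the lowest sample, and Col10a1 is dark in all 4.

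Other genes of cartilage stood with these collagens in brain. Of 10 cartilage markers that are not collagens, all 10 were detected in CKO brain and 5 in WT brain. At least 2-fold higher in CKO brain were 8 of 10, against 1.37% of all genes, with a median of 3.12 log2. Aggrecan (Acan), the main proteoglycan of cartilage, went from -4.86 in WT brain to -0.81 in CKO brain. Matn1, Matn3, Hapln1, Comp and Epyc, all genes of cartilage matrix proteins, were not above background in WT brain. The summed signal of the 10, in units of the array's 75th percentile, was 7.30 (WT) and 6.14 (CKO) in limb and 4.26 (WT) and 7.56 (CKO) in brain. Without Sox9, which neural progenitors also express, it was 4.23, 3.22, 0.257 and 3.51. In limb the markers had a median of -0.47. There 1 of 9 compared, Epyc, was at least 2-fold lower in CKO, by 2.69-fold, against 2.16% of all genes. Sox9 itself, the factor that switches on Col2a1 in chondrocytes, differed by 0.02 log2 in brain. In bulk tissue more cells of a type and more RNA per cell cannot be told apart, and the part of cartilage cells in the collagen differences was not tested.

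Type I collagen, the most abundant protein of skin, tendon and bone, joins 2 products of Col1a1 with 1 of Col1a2, and these 2 genes differed in opposite ways in CKO brain. Col1a1 was at 6.52 (WT) and 4.44 (CKO) in limb and 1.30 (WT) and -0.02 (CKO) in brain, each the mean of 10 spots. That is a difference of -2.08 ± 0.024 in limb and -1.32 ± 0.030 in brain (SE over 10 spots on each array), leaving 23.6% and 40.0% of the WT signal. The spots did not overlap between genotypes in either tissue, which again covers spot error alone and not spread among embryos. The 2 probes printed earlier gave the same direction. The first left 21.0% in limb and 40.3% in brain, and the second 23.6% and 46.3%. The 3 Col1a1 probes span 13.9 kb of chromosome 11, so the lower signal was seen at points far apart in the gene.

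Col1a2 was at 8.36 (WT) and 8.14 (CKO) in limb and 4.07 (WT) and 5.14 (CKO) in brain. Its difference was -0.21 in limb and 1.07 in brain (2.10-fold higher). A second, dimmer Col1a2 probe gave -0.49 in limb and in brain was above background in CKO alone. The 2 chains of type I collagen were thus 1.87 log2 (3.66-fold) apart in their CKO minus WT difference in limb and 2.39 log2 (5.24-fold) apart in brain. For comparison, Col4a1 and Col4a2, whose products join in 1 molecule and whose genes lie side by side, were 0.06 apart in limb and 0.13 in brain. Col6a1 and Col6a2 were 0.04 apart in each. Type V chains were further apart than those of type I, by 2.73 in limb and 3.06 in brain. Type IX chains were 0.39 apart in limb and 3.21 in brain, so a wide gap was not particular to type I.

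Another transcript that was lower in both CKO samples is given beside Col1a1 because both loci are in common use for inserting doxycycline-inducible transgenes. It was chosen after its values had been seen. Gt(ROSA)26Sor was at -0.49 (WT) and -3.12 (CKO) in limb and -0.76 (WT) and -1.58 (CKO) in brain, which is 6.21-fold lower with CKO in limb and 1.76-fold lower in brain. The labels do not say where the Cre alleles lie, and the part of inserted alleles in the Col1a1 values was not tested.

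**Figure D3:**
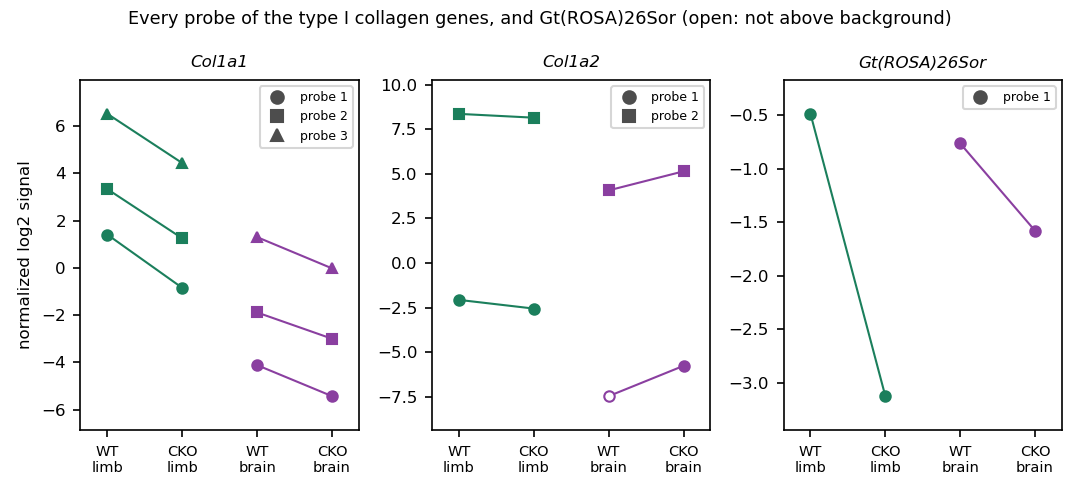
Normalized log2 signal (vertical axis, its own scale in each panel) of all 3 probes of Col1a1, both probes of Col1a2 and the probe of Gt(ROSA)26Sor, in WT and CKO limb (green) and brain (purple), 1 array each. Open points were not well above background. All 3 Col1a1 probes are lower in CKO in both tissues, while the brighter Col1a2 probe is higher in CKO brain.

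The remaining fibrillar collagens regulate or accompany type I fibrils. The fibrillar class as a whole had a median of -0.04 in limb and 0.59 in brain, and 2 of 7 were at least 2-fold higher in CKO brain, Col1a2 and Col5a3. Col3a1, the collagen of vessel walls and loose connective tissue, was at 6.30 (WT) and 6.25 (CKO) in limb and 2.48 (WT) and 3.07 (CKO) in brain, a difference of -0.05 and 0.59. Its 3 probes disagreed in brain. A second was higher in CKO brain by 0.45, and the third, placed on another transcript record, was dark in CKO brain and at least 2.89-fold lower there. Col24a1, a fibrillar chain of developing bone, differed by 0.03 in limb at its brighter probe and went from -2.61 in WT limb to -3.61 in CKO limb at the other. It was above background in CKO brain but not in WT brain at the brighter one. The other probe was above background on both brain arrays, at -4.32 (WT) and -4.66 (CKO), a difference of -0.34.

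Type V collagen sets the diameter of fibrils, and its chains come from Col5a1, Col5a2 and, in some tissues, Col5a3. Col5a3 was at -0.61 (WT) and 2.07 (CKO) in limb and -3.77 (WT) and -0.32 (CKO) in brain. Each CKO sample was above the WT sample of its tissue, 6.43-fold in limb and 10.9-fold in brain, and Col5a3 was the one collagen at least 2-fold higher in both. Its partners did not do this. Col5a1 was at 4.53 in both limbs, 0.02 in WT brain and 0.82 in CKO brain, and Col5a2 differed by -0.04 in limb and 0.39 in brain. The glycine-repeat probe of Col5a3 was above background in CKO limb alone, at -4.76, which bounds it at least 0.19 log2 above WT limb, so the size at the brighter probe (chr9:20574592-20574651, mm9) rests on that probe. The Col5a3 difference in brain was 2.58 log2 with normexp and 1.26 as the mean of both probes.

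The bases upstream of Col5a3 were read because it was the one collagen at least 2-fold higher in CKO in both tissues. RefSeq on GRCm38.p6 places the 250 bases before its start at chr9:20815068-20815317 on the minus strand. They are printed 5′ to 3′ with the one CCAAT box in capitals, which begins 122 bases before the start site.
Col5a3 upstream: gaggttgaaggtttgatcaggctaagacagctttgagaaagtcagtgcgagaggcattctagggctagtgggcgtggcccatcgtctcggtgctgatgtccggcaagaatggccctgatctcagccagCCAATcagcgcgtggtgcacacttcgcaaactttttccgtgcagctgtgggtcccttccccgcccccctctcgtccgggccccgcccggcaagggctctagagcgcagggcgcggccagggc

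RefSeq held 37 promoter windows of 300 bases for 34 of the 42 collagen genes, and 32851 for all genes. The letters CCAAT, on either strand, were in 13 of the 37 collagen windows and in 37.4% of all windows. ACAATG, a core bound by SOX factors, was in 1 collagen window (Col28a1) and in 12.6% of all. The left and right parts of the element that REST binds, searched as TTCAGCACC and GGACAGCGC on both strands, were in 0 of 37 collagen windows, and in 0.371% and 0.405% of all windows. TATAAA on the forward strand was in 5 of 37 and in 8.32% of all. These are matches of letters in a short window and say nothing of sites elsewhere.

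Basement membrane collagens differed little between CKO and WT at their brightest probes. Of 8 compared, 0 were at least 2-fold different there in either tissue. A dimmer Col4a4 probe was dark in CKO limb, at least 2.11-fold lower than WT. In brain it was dark in WT, and at least 2.25-fold higher in CKO. The class median was 0.33 in brain, the lowest of the 4 classes, and -0.20 in limb, where the medians of the others ran from -0.15 to -0.04. Col4a1 and Col4a2 encode the chains of the widely expressed type IV network. Col4a1 was at 3.13 (WT) and 3.28 (CKO) in limb and 1.90 (WT) and 2.24 (CKO) in brain, and Col4a2 differed by 0.09 and 0.47. Col18a1, whose product carries heparan sulfate chains and the endostatin fragment, was at 3.89 (WT) and 3.90 (CKO) in limb and 2.45 (WT) and 2.77 (CKO) in brain. The next brightest was Col7a1, the anchoring fibril that fastens epidermis to dermis, which differed by -0.43 in limb, from a WT level of 3.53, and by 0.42 in brain, from -0.93. The lowest difference of the class was that of Col4a5 in limb, -0.61, and the highest that of Col15a1 in brain, 0.54. Endothelial markers, the 8 genes of the cells that make much of this matrix in brain, had a median of 0.03 in limb and 0.21 in brain, and 0 of 8 differed by 2-fold.

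The other collagens comprise type VI filaments, fibril-associated and transmembrane collagens. In brain 14 could be compared, and with CKO 2 of them were higher by 2-fold or more and 0 lower, with a median of 0.53. Col12a1, which links fibrils to the surrounding matrix, was at 1.03 (WT) and 0.90 (CKO) in limb and -4.55 (WT) and -2.57 (CKO) in brain, a difference of -0.13 and 1.98. Col16a1, another fibril-associated collagen, was at 4.63 (WT) and 4.39 (CKO) in limb and 0.40 (WT) and 1.48 (CKO) in brain, a difference of -0.25 and 1.08. Both remained well below either limb in CKO brain. With normexp, Col12a1 differed by 1.09 in brain.

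The type VI chains Col6a1 and Col6a2, which form beaded filaments around cells, were 0.77 and 0.81 higher in CKO brain and 0.01 and 0.06 higher in CKO limb. Col8a1, a network collagen, was at 3.03 (WT) and 2.75 (CKO) in limb and 0.27 (WT) and 0.21 (CKO) in brain. In limb, 0 of 17 in this class differed by 2-fold, and the range ran from -0.81 to 0.59. The low end was Col17a1, a transmembrane collagen of basal keratinocytes, at 0.18 in CKO limb, a difference of -0.81 from WT, and dark in both brains. The 5 epidermal markers had a median of -0.60 in limb, with a summed signal of 101 in WT limb and 66.6 in CKO limb. Of the 5, 1 (Krt1) was at least 2-fold lower, against 2.16% of all genes. The part of epidermal cells in the Col17a1 and Col7a1 values was not tested. The high end was Col6a4, whose 2 probes disagreed in sign in both tissues, 0.59 and -0.29 in limb and 0.19 and -0.53 in brain.

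Chains of one collagen type were closer to each other in limb than in brain in most of the sets compared. In limb 3 pairs, Col4a1 with Col4a2, Col6a1 with Col6a2 and Col8a1 with Col8a2, were each within 0.06 log2. The joint set of types II and XI was also within 0.06, and type IX within 0.39. Types I and V were far apart in limb as well, by 1.87 and 2.73, and in brain by 2.39 and 3.06. Other chains of types IV and VI were left out of these sets, and in limb Col4a5 differed by -0.61 and Col6a4 by 0.59. In brain the gap was 0.91 between Col8a1 and Col8a2, 0.83 within types II and XI, and 3.21 within type IX, from Col9a2 to Col9a1. Neighbouring genes were also read side by side. Col9a1 has Col19a1 as its neighbouring gene on chromosome 1, and Col19a1 was dark in WT brain and at -5.46 in CKO brain, which allows no fold. The neighbours Col3a1 and Col5a2 differed by 0.59 and 0.39 in brain.

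Between tissues, collagens were lower in brain. In limma, with genotype as a block and Benjamini-Hochberg adjustment over the 15629 genes that were unsaturated and well above background on each array, 25 of 34 collagens (73.5%) were lower in brain and 0 higher, against 34.4% lower and 32.2% higher among all genes. All 6 fibrillar collagens in the fit were lower in brain, with 7 of 8 basement membrane collagens and 11 of 13 others. Col1a1 was lower in brain by -4.84 ± 0.25 log2 (SE, limma adjusted p = 0.00633), Col1a2 by -3.65 ± 0.41 (limma adjusted p = 0.0137) and Col4a1 by -1.13 ± 0.079 (limma adjusted p = 0.00786). Each was lower in both brain samples than in both limb samples. The fit has 2 arrays per tissue and 1 residual degree of freedom, and an exact permutation of 2 arrays against 2 could not go below p = 0.333.

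Within the other classes, the largest tissue difference past the threshold was that of Col14a1, a fibril-associated collagen, at -4.76 ± 0.26 (limma adjusted p = 0.00662), and Col7a1 differed by -4.03 ± 0.27 (limma adjusted p = 0.00764). Col8a1 differed by -2.65 ± 0.087 (limma adjusted p = 0.00569). The type VI chains were alike, with Col6a1 at -4.28 ± 0.25 (limma adjusted p = 0.00678) and Col6a2 at -4.10 ± 0.24 (limma adjusted p = 0.00698). The collagens outside cartilage that did not pass were Col4a6 (0.22 ± 0.10), Col6a4 (-0.24 ± 0.14) and Col22a1 (-0.42 ± 0.13), with limma adjusted p of 0.165, 0.221 and 0.0796. Col4a6 belongs to a type IV network of limited distribution, and Col22a1 to junctions of muscle with tendon. The smallest tissue difference that passed was that of Col4a4, another type IV chain, at -0.50 ± 0.056 (limma adjusted p = 0.0138).

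Of the cartilage collagens, 1 of 7 passed, Col27a1, at -2.71 ± 0.59 (limma adjusted p = 0.0426). Col2a1 was at -2.09 ± 0.61 (limma adjusted p = 0.0732) and Col9a1 at -2.46 ± 1.4 (limma adjusted p = 0.219). The SE of Col9a1 was larger than that of any other collagen in the fit. Its CKO minus WT differences lay far apart in the 2 tissues, 0.69 in limb and 5.08 in brain, and that gap is the residual of the fit. The tissue difference of this class was unlike in the 2 genotypes. In WT the cartilage collagens were a median of 7.54-fold higher in limb than in brain, and in CKO 1.21-fold. The same ratio was 16.6-fold and 9.62-fold for fibrillar, 2.36-fold and 1.94-fold for basement membrane, and 9.88-fold and 6.61-fold for other collagens. These ratios use the same 4 arrays as the CKO minus WT differences, so they restate them and add no independent evidence. In CKO brain, 6 of 36 collagens were above their WT limb level, Col9a1, Col9a2, Col9a3, Col11a2, Col5a3 and Col6a4. In WT brain 1 of 34 was, Col4a6. The like counts over all genes are not given here. Col6a4 was above by 0.15, and its other probe was lower in CKO brain (-5.11) than in WT limb (-4.55).

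**Figure D4:**
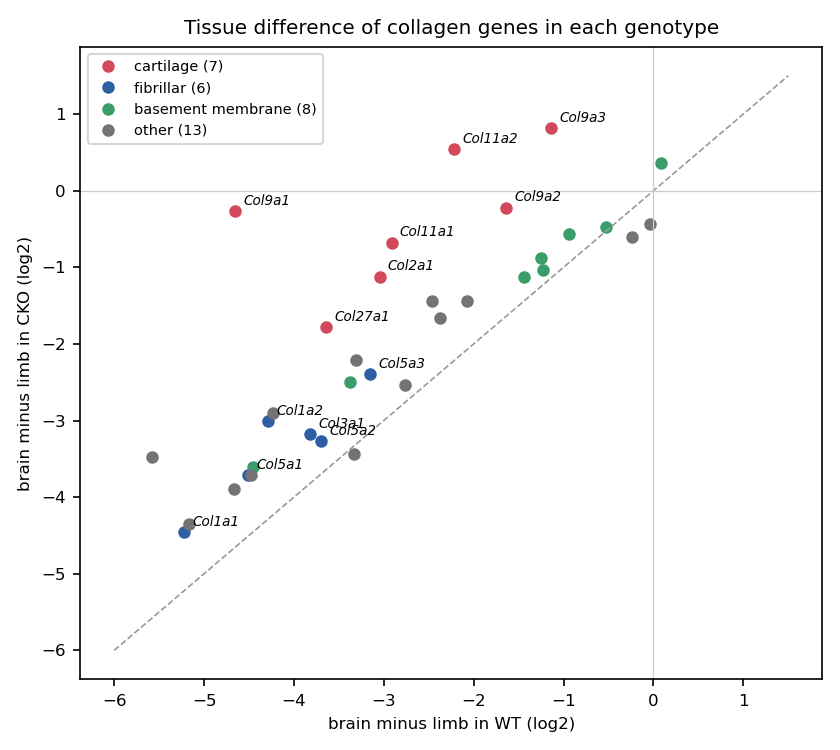
Brain minus limb difference (log2) of 34 collagen genes in WT (horizontal axis) and in CKO (vertical axis), 1 array per group, coloured by class. On the dashed line the 2 genotypes would have the same tissue difference. The 7 cartilage collagens and Col12a1 lie farthest above it, and 31 of the 34 genes lie above it. The like count over all genes is not given.

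Taking the 2 tissues together, genotype was fitted in limma with tissue as a block. It called 0 collagens and 0 of all 15629 genes (0%) in either direction, and the smallest adjusted p was 0.66. At an unadjusted p under 0.05, 2 of 34 collagens were higher in CKO, Col5a3 by 3.07 ± 0.24 and Col20a1 by 0.47 ± 0.06 (SE), and 1 was lower, Col1a1 by -1.70 ± 0.25. Among all genes 398 (2.55%) were higher and 586 (3.75%) lower at that level. Col20a1, a fibril-associated collagen, was at -1.50 (WT) and -0.98 (CKO) in limb and -4.83 (WT) and -4.41 (CKO) in brain.

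Genes that fold, process and bind collagen were read beside the collagens. Of 17 modifying enzymes and chaperones, such as the prolyl and lysyl hydroxylases and the chaperone Serpinh1, 0 differed by 2-fold in either tissue, with a median of 0.01 in limb and 0.38 in brain. Between tissues 14 of the 15 in the limma fit were lower in brain, against 34.4% of all genes. Of 12 genes for cutting propeptides and crosslinking fibrils, 10 could be compared in brain. There 1 of the 10, the lysyl oxidase Lox, was at least 2-fold higher in CKO, against 1.37% of all genes. Lox went from -3.47 in WT brain to -2.43 in CKO brain and was at 1.44 and 1.33 in the limbs. The median of these genes was -0.14 in limb and 0.18 in brain.

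Among 5 collagen-cutting proteases, the gelatinase Mmp2 was 2.28-fold higher in CKO brain, and Mmp8 and Mmp13 were dark on all 4 arrays. Of 9 collagen receptors, the platelet receptor Gp6 was 2.05-fold lower in CKO limb. There the 4 detected markers of red cells were all at least 2-fold lower, against 2.16% of all genes, with a median of -1.74. The part of blood in the Gp6 value was not tested. Of 8 transcription factors that act on collagen genes, Mkx, a tendon factor, was at least 2.25-fold higher in CKO brain, a bound because WT brain was dark. Sox5 and Sox6, which work with Sox9 on Col2a1, differed by -0.25 and -0.16 in brain.

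Markers of mesenchyme and meninges, the cells that make most fibrillar collagen around the brain, were also higher in CKO brain. Of 10 markers, 5 were at least 2-fold higher, against 1.37% of all genes, with a median of 0.95. Among them were Twist1 (2.41-fold), Twist2 (2.52-fold) and Foxc2 (3.18-fold). The summed signal of the 10 was 224 (WT) and 180 (CKO) in limb and 15.4 (WT) and 22.5 (CKO) in brain. In brain 2 of 3 tendon markers and 2 of 6 muscle markers were at least 2-fold higher, while 0 of 6 bone markers and 0 of 10 neuronal markers were. Of the 8 bone markers listed, 2 were detected in WT brain and 6 in CKO brain. Most of their brain differences were therefore bounds, which do not show them unchanged. The neuronal markers had a median of -0.03 in brain. The 8 of them in the limma fit were all higher in brain than in limb, against 32.2% of all genes. In limb 5 of the 10 neuronal markers were at least 2-fold higher in CKO, against 2.49% of all genes. They were Snap25, Elavl3, Stmn2, Tubb3 and Rbfox3, and the median of the list was 1.35. The part of these cells in the fibrillar collagen values was not tested.

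**Figure D5:**
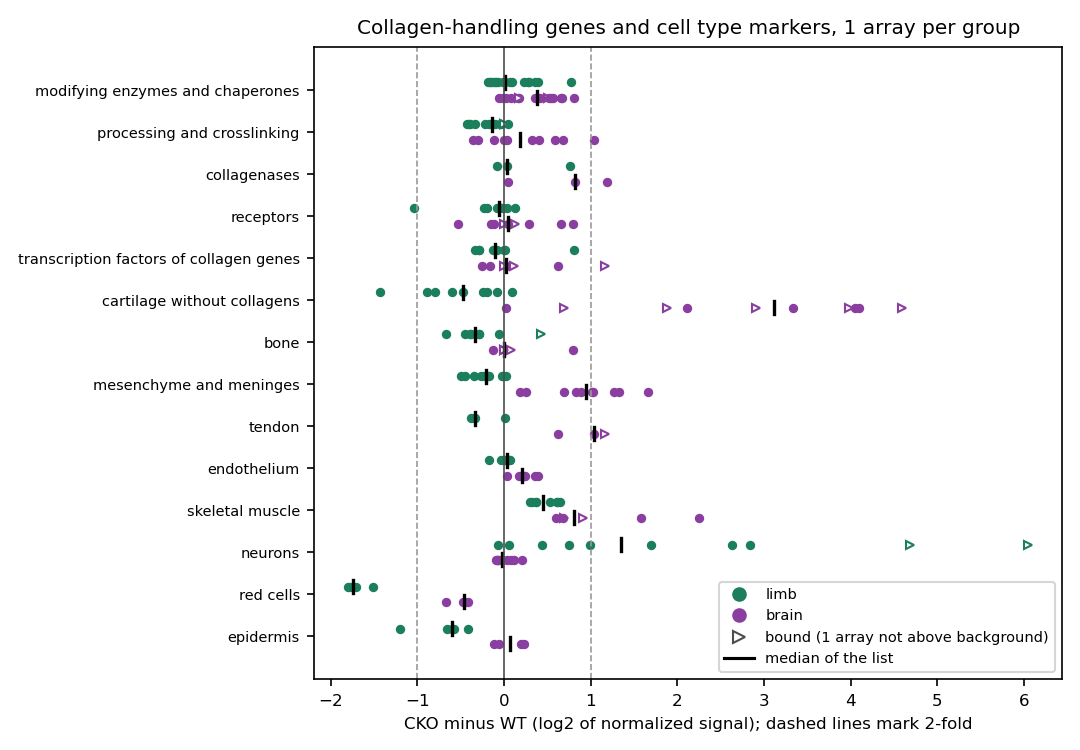
CKO minus WT difference (log2, horizontal axis) of genes that handle collagen and of cell type markers, in limb (green) and brain (purple), 1 array per group. Each point is a gene, open triangles are bounds, black bars are the medians of a list and dashed lines mark 2-fold. Non-collagen cartilage markers have the highest brain median, 3.12.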

How the data were processed

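RNA of the 4 samples was amplified to Cy3-labelled cRNA and hybridised to 4 arrays, per the labels' protocols. The arrays were of 1 colour, and Agilent Feature Extraction (version 9.5.3.1) quantified them according to the submitters' processing notes. The deposited intensity of each spot was background-subtracted within its array, per the file headers. Those intensities, rounded, also made up the deposited series table, within 0.0071 on the log2 scale.

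Control spots and spots marked as outliers were left out, which removed 10 of the probes altogether. Each array's 75th percentile of log2 intensity was subtracted and the spots of a probe were averaged, leaving 41164 probes. Each gene is represented by its brightest probe, judged by the mean of all 4 arrays. Of all probes, 26929 were named through their accession, 5567 through a current symbol and 892 through a synonym in RefSeq, and 7776 kept the deposited name. Where 1 array of a pair was dark (not well above background), its difference became a bound against the lowest signal well above background there, or the probe's own if higher. Positions of probes are the deposited ones on mm9, and exon or UTR positions were not used here.

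The members are every probe matching the name pattern. The text gives all samples for the cartilage collagens, Col1a1, Col1a2 and every collagen measured at least 2-fold different, with up to 4 of the brightest others per class, and from the lists of collagen-handling genes those at least 2-fold different, with examples from the marker lists. Some genes outside the rule were picked with their values in view, among them Col4a5, Col6a4, Col15a1, Col17a1 and Col20a1. The members and lists were chosen with earlier results of these data known. Alternatives were another background correction (normexp, offset 50), quantile scaling, the percentile over detected probes, the mean of a gene's probes, the series table, other filters, a 1.5-fold size and no block. Calculations used Python 3.11.15, pandas 2.3.3, numpy 2.4.6 and matplotlib 3.10.9, and limma 3.58.1 in R 4.3.3 with an adjusted p threshold of 0.05, tested on simulated data.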

Additional observations from a re-analysis of the deposited data

How the results depend on the processing

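Counts at 2-fold gave 1 higher and 1 lower collagen in limb under every scaling, background and probe setting tried. In brain they gave 10 or 11 higher and 1 lower, but the genes counted were not always the same. Of the cartilage collagens, Col2a1 fell under 2-fold in brain with the mean of all probes (0.94), and Col27a1 with normexp (0.95). At 1.5-fold, 3 were higher and 3 lower in limb and 18 higher in brain. The median of cartilage collagens in brain was 1.93 with normexp and 1.87 with the mean of all probes. With normexp the median of other collagens in brain was 0.36. With the mean of all probes the limb median was -0.21 for fibrillar and -0.11 for basement membrane collagens. With genes above background on both arrays only, the brain median was 0.70 for fibrillar and 0.65 for other collagens. The near-zero fibrillar limb median was 0.0091 with normexp and 0.0076 with quantile scaling. The cause of these moves was not tested. The mean of all probes takes in dark probes, and put Col2a1 at 0.94 and Col5a3 at 1.26 in brain. Among the 24 values of named genes, 8 moved by more than the technical SD with normexp, 12 with the mean of all probes and 2 with quantile scaling, and 0 changed sign.

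The tissue count ranged from 24 to 27 lower in brain. With no filter on dim genes the genotype fit called 1 collagen lower in CKO, Col28a1, which was above background on no array and holds substitute values, along with 74 higher and 4025 lower of all 27627 genes entered. No paired analysis was possible because the labels carry no replicate numbers that tie samples to an embryo. The limma fits pair arrays through tissue or genotype as a block alone, and without the block they called 24 collagens lower in brain and 0 by genotype. Signal over background limits the genes that were dark in WT brain, for which only bounds were had.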
